A study of Rattus norvegicus with 12 samples.

Results

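The left inferior colliculus (IC) of rats deafened in the right ear was compared with the left IC of sham-operated rats, using the 3 arrays titled as left IC of the single-sided deaf group and the 3 titled as left IC of the control group, 6 of the 12 arrays in the series. All rats were of the SD (Sprague-Dawley) strain. Ablation of the right cochlea was done in 20 rats. The sham operation, in another 20, opened the skin behind the ear and spared the otic bulla. Tissue of both groups was taken 2 weeks after surgery, and total RNA was hybridised to 1-colour Affymetrix arrays. The remaining 6 arrays hold the right IC of the same 2 kinds of rats and are used here for the test of whether the left difference exceeds the right one. It is not stated if RNA of several rats was pooled for an array, so p-values measure the spread between arrays, which may be technical. They give no ages, and no check of hearing is used here.

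The IC is the midbrain station where ascending auditory pathways converge. Most of its input crosses the midline, so the left IC is driven mainly by the right ear, the ear removed here. Its neurons use glutamate or GABA, receive glycinergic input from the brainstem, and carry neuropeptides in dense-core vesicles. Neurons that lose sensory drive are known to alter activity-dependent genes, among them secretory peptide precursors and channels that set excitability.

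The labels conflict on the tissue: hippocampus stands in the title of the series and in the descriptions of its samples, and IC in the sample titles, tissue entries and design text. The level of each gene was therefore set against all 29489 probes of the arrays, including 10403 without a gene symbol. Their log2 intensities had a lower quartile of 3.78, a median of 5.34 and an upper quartile of 6.94. The 18166 genes had a higher median level, 5.97. The midbrain transcription factor genes Tcf7l2 (10.10 to 10.37 over the 6 left arrays), Meis2 (9.21 to 9.46), Foxp2 (7.98 to 8.16) and Gata3 (7.41 at the lowest) lay above the upper quartile on each left array. In all, 6 of the 20 tectal and midbrain markers did so and 0 lay below the lower quartile on each. Others, such as Gata2 (6.09 to 6.50), lay between. Of the 16 forebrain markers 2 lay above and 2 below on each. The share of all genes above the upper quartile on each left array was not counted. Olig2, with a 12-array mean of 6.99, stood at percentile 69.1 of all genes, so levels above 6.94 are common. Neurod6 (2.92 to 3.68) and Tdo2 (2.92 to 3.11), which mark hippocampal and other forebrain neurons, lay below the lower quartile on each left array. Gabra6, a cerebellar granule cell receptor subunit, lay between 2.54 and 3.82. Of 16 measured hippocampal and forebrain markers, 2 had a 12-array mean below the lower quartile. Several, such as Prox1 (5.93 to 6.29) and Wfs1 (6.85 to 7.20), did not. Neither list by itself settles the tissue. Pairs of the 6 left arrays correlated at 0.989 to 0.993 across probes, and no left array stood apart on that measure.

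Values are log2 intensities, so a difference of 1 is a doubling. For each gene the values are given in the order of control arrays 1, 2 and 3, then deaf arrays 1, 2 and 3, followed by the deaf minus control difference with the standard error (SE) of the limma fit. No gene passed a limma adjusted p of 0.05 among 18166 genes (0%), and the smallest adjusted p was 0.11. Without adjustment, 309 genes were higher (1.7%) and 361 lower (1.99%) in the deaf left IC at p under 0.05. All 3 deaf arrays lay above all 3 control arrays for 838 genes (4.61%) and below them for 1036 (5.7%). Both directions together, 10.3% of genes did not overlap and 3.69% had an unadjusted p under 0.05. For unchanged genes shares of 0.1 and about 0.05 would arise. The mean was lower for 9403 genes (51.8%), and the median difference over all genes was -0.0051. Genes are therefore described below by value, and "separate" means that the 3 deaf arrays and the 3 control arrays did not overlap. Because each array is a whole piece of tissue, fewer cells of a type and less RNA per cell cannot be told apart in any of these values.

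The smallest p belonged to a secretory peptide gene. Vgf encodes a precursor that is packed in dense-core vesicles and cut into neuropeptides, and its transcription is induced by neurotrophins and by activity. Vgf read 8.22, 8.31 and 7.97 in control and 7.09, 7.28 and 7.51 in deaf left IC. Each deaf array was lower than each control array, and the closest pair, control 3 and deaf 3, were still apart. The means were 8.17 ± 0.17 (SD, n = 3) and 7.29 ± 0.21 (SD, n = 3), a difference of -0.88 (SE 0.11), with a limma unadjusted p of 6.07e-06 and an adjusted p of 0.11. On the right side the difference was -0.0009, and the difference between sides was -0.88 (limma adjusted p = 0.711 for the interaction). Without left deaf 3 the left difference was -0.98 and passed (limma adjusted p = 0.0482), and over the omissions of single left arrays the adjusted p ran from 0.0482 to 0.914. Over all 14 alternative settings with a value for Vgf, these omissions included, it ran from 0.00221 to 0.914.

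Vgf belongs to the granins and prohormone-processing genes, which build and mature the dense-core vesicle. Of 9 measured members 8 had lower means, with a median of -0.08 against -0.0051 over all genes, and 3 were separate on the low side, against 5.7% of all genes. Scg2, the precursor of secretoneurin, read 9.89, 10.12 and 9.77 in control and 9.61, 9.67 and 9.77 in deaf arrays, a difference of -0.24 (SE 0.11). Its separation was minimal, since control 3 and deaf 3 were at the same rounded value, and the difference was -0.15 without control 2. Scg3, which helps to load granins into vesicles, read 8.95, 9.02 and 9.04 against 8.82, 8.82 and 8.89, a difference of -0.16 (SE 0.08), with a clear gap between the groups. The other members had overlapping arrays: the chromogranins Chga (-0.08) and Chgb (-0.07), the amidating enzyme Pam (-0.12), the convertase Pcsk2 (-0.04), its chaperone Scg5 (-0.0047) and the convertase inhibitor Pcsk1n (0.14). On the right side, where the control arrays are different ones, the median of the 9 was 0.10 and 2 had lower means.

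Ptprn, which encodes a receptor-like protein of the dense-core vesicle membrane and was outside the list, was picked after its values were seen. Ptprn read 8.99, 9.02 and 9.01 against 8.74, 8.76 and 8.81, a difference of -0.24 (SE 0.07; limma adjusted p = 1), with tight groups and no overlap. The convertase inhibitor Pcsk1n was the single member of the list with a higher mean, so the lower values were not shared by every vesicle gene. Pcsk1n read 11.30, 10.91 and 11.25 against 11.24, 11.41 and 11.23, with overlap, and the low control 2 value widens its difference.

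The promoters of the 2 members with a full cyclic AMP response element are shown because this element, TGACGTCA on both strands, is a known route from activity to such genes. The sequences are the 250 bases before the RefSeq start of each gene in the GRCr8 assembly, 5′ to 3′ on the gene's strand, with the element in capitals and, in Vgf, the E-box CACGTG as well.
Vgf (chr12:25277021-25277270, minus strand): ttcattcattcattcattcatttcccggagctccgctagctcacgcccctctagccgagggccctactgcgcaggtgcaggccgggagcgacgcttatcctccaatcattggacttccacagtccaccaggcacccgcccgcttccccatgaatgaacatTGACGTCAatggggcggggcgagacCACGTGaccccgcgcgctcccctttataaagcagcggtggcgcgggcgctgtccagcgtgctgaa
Scg2 (chr9:88256867-88257116, minus strand): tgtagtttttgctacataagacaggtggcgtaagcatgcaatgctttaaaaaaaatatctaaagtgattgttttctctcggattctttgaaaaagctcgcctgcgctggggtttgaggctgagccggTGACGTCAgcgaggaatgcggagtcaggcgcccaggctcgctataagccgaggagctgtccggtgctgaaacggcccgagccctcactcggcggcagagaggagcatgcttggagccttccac
In Vgf the element lies 90 to 83 bases before the start and the E-box 65 to 60 bases before it. In Scg2 the element lies 123 to 116 bases before the start. Over windows from 250 bases before to 50 bases after the start, the full element was in 525 of 27457 rat promoters (1.91%), and in 2 of the 8 granin-list promoters in the table. The shorter core TGACG, which is part of the full element, was in 22% of all promoters and in 6 of those 8 (Vgf, Scg2, Scg3, Pam, Pcsk2 and Scg5). The E-box was in 6.65% of all promoters and in Vgf alone of those 8. Among genes named below for the smallest p, 1 of 9 lower genes with a promoter entry (Vgf) and 1 of 10 higher ones (Tnp1) held the full element, and Tnp1 had a higher mean in the deaf arrays. A match is a description of letters and not evidence of binding.

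**Figure D1:**
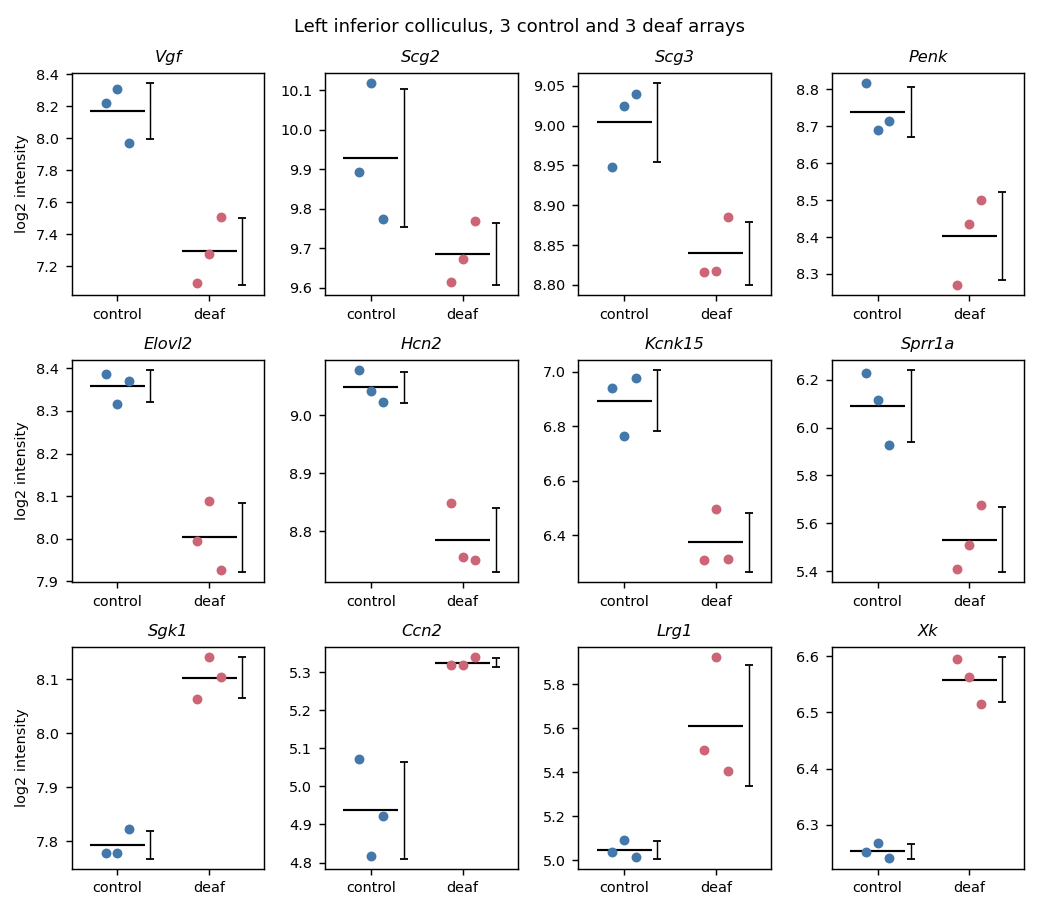
Log2 intensity (vertical axis, a separate scale in each panel that does not start at 0) of 12 genes on the 3 control and 3 deaf left IC arrays; points are arrays 1 to 3 from left to right, the horizontal line is the group mean and the bar beside it spans 1 SD either way. In each panel the groups do not overlap, with the widest gap for Vgf (-0.88) and a gap too small to see for Scg2 (-0.24).

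Among the neuropeptide genes themselves, 11 of 21 measured members had lower means, with a median of -0.03. On the low side 1 was separate, against 5.7% of all genes. Penk, the enkephalin precursor, read 8.82, 8.69 and 8.71 in control and 8.27, 8.43 and 8.50 in deaf arrays, a difference of -0.34 (SE 0.09; limma unadjusted p = 0.00327, adjusted p = 1). Every deaf array was below every control array, and the right difference was 0.05. Nts, the neurotensin precursor, read 5.71, 5.87 and 5.94 against 5.08, 5.26 and 5.81, a difference of -0.46 (SE 0.21). Deaf arrays 1 and 2 were low for Nts, whereas deaf 3 lay within the control range. Neuropeptide precursors as a list were therefore close to the background, with Penk the separate member.

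Genes that respond to firing gave no common direction. Of 18 measured immediate early transcription factor genes 9 had higher and 9 lower means, with a median of 0.02. Fos, the usual marker of recent activity, read 6.53, 6.61 and 6.42 against 6.88, 6.53 and 6.04, so the highest and the lowest of the 6 were both deaf arrays. Npas4 (0.12, SE 0.21) and Egr1 (-0.12, SE 0.10) also overlapped. Atf3, a stress- and injury-induced factor, was the separate member: 5.08, 5.28 and 4.93 against 5.89, 5.41 and 5.40, a difference of 0.47 (SE 0.23; limma unadjusted p = 0.0632). The height of deaf 1 carries much of the Atf3 difference, which was 0.31 without it. Of 15 activity-induced effector genes 7 were lower and the median was 0.00, with 1 separate on either side. Over all genes 4.61% were separate on the high side and 5.7% on the low side. Inhba, an activin subunit gene, was the higher one (0.11, SE 0.08). Arc, a dendritic regulator of synaptic strength, was separate on the low side at 6.02, 5.98 and 5.91 against 5.67, 5.75 and 5.78, a difference of -0.24 (SE 0.14). Bdnf, the neurotrophin, had a difference of -0.12 (SE 0.12) with overlap.

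Of 19 measured axon injury and growth genes 10 had lower means, with a median of -0.01, against -0.0051 over all genes. Sprr1a, which is induced in injured sensory neurons, read 6.23, 6.11 and 5.93 against 5.41, 5.51 and 5.68, a difference of -0.56 (SE 0.13; limma adjusted p = 0.986). Ecel1, an endopeptidase gene known from injured neurons, read 5.53, 5.55 and 5.68 against 5.19, 5.13 and 5.38, a difference of -0.35 (SE 0.13). Both were separate on the low side, and Atf3, on the same list, was separate on the high side. The shares over all genes were 5.7% and 4.61%. Gap43, a growth cone protein, differed by -0.01 (SE 0.09). Of 17 neurotrophin and receptor genes 10 were lower, against 51.8% of all genes, and 3 were separate on the low side, against 5.7%. Cntf, a glial survival factor, led them at 6.12, 6.13 and 6.11 against 5.68, 5.87 and 5.93 (-0.29, SE 0.11).

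Inhibitory transmission showed 1 separate enzyme. Gad1, which makes most of the brain's GABA, read 10.23, 10.11 and 10.19 in control and 9.82, 9.99 and 10.03 in deaf arrays, a difference of -0.23 (SE 0.12; limma unadjusted p = 0.0754). The groups did not overlap, and the right difference was 0.04. Gad2, the second GABA-synthesising enzyme, read 9.64, 9.77 and 9.63 against 9.70, 9.61 and 9.71, a difference of -0.01 (SE 0.08), with full overlap. Slc32a1, which packs GABA and glycine into vesicles, had a difference of -0.11 (SE 0.10). None of 11 measured GABA-A receptor subunit genes was separate, against 10.3% of all genes. Their median was -0.0025 and the lowest measured member was at -0.23.

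Glycine and acetylcholine genes varied more between arrays. Slc6a5, the transporter of glycinergic terminals, read 5.64, 5.24 and 5.12 against 4.81, 4.89 and 5.08, a difference of -0.40 whose SE was 0.46. Slc5a7, the choline transporter of cholinergic neurons, read 5.68, 5.22 and 4.97 against 4.62, 4.55 and 4.84, a difference of -0.62 (SE 0.37). Both were separate, but control 1 was far above the other controls (Slc6a5 differed by -0.25 without it), and the right differences were larger (-0.64 and -0.86). Chrna3, a nicotinic receptor subunit, read 5.79, 5.85 and 5.51 against 5.25, 5.42 and 5.46, a difference of -0.34 (SE 0.12). Of 15 cholinergic genes 11 had lower means, with a median of -0.08 on the left and -0.03 on the right. Over the omissions of single left arrays 6 to 13 of them were lower, and without deaf 1 the median was 0.02. Glra1, the adult glycine receptor subunit, had a left difference of -0.13 (SE 0.16).

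Medians of the excitatory synapse lists ran from -0.017 for glutamate transporters and synthesis to 0.055 for metabotropic glutamate receptors. Slc17a6, the vesicular glutamate transporter of IC neurons, had a difference of -0.11 (SE 0.10) and Grin1, the obligatory NMDA receptor subunit, one of -0.04 (SE 0.08). Both overlapped. Grin2d (0.31, and 0.13 without control 2), Grm5 (0.13) and Slc38a2 (0.08) were separate on the high side. They were 1 of 7 NMDA receptor, 1 of 5 metabotropic receptor and 1 of 9 glutamate transporter genes, against 4.61% of all genes. None of those lists had a member separate on the low side. Of 14 AMPA and kainate receptor genes 9 were higher and 3 were separate on the high side, against 4.61% of all genes. Grik5, a kainate receptor subunit, was one of them: 7.30, 7.34 and 7.25 against 7.47, 7.43 and 7.45 (0.15, SE 0.08). Grik1, a partner subunit, was separate on the low side (-0.37, SE 0.20), so members of the same receptor family lay on either side. Among 20 synaptic vesicle and release genes, Sv2c, a vesicle glycoprotein, read 7.44, 7.39 and 7.31 against 6.73, 7.17 and 7.07 (-0.39, SE 0.13), and its right difference was -0.40. Without deaf 1 the left difference of Sv2c was -0.25.

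Of 15 measured HCN and two-pore potassium channel genes 12 had lower means, with a median of -0.04, and 3 were separate on the low side and 0 on the high side, against 5.7% and 4.61% of all genes. The median ran from -0.10, without control 3, to -0.05 over the omissions of single left arrays. Hcn2, a channel of the hyperpolarisation-activated current, read 9.08, 9.04 and 9.02 in control and 8.85, 8.76 and 8.75 in deaf arrays, a difference of -0.26 (SE 0.09; limma unadjusted p = 0.0135, adjusted p = 1). The groups were tight and apart, and the right difference was -0.03. Kcnk15, a two-pore channel, read 6.94, 6.77 and 6.98 against 6.31, 6.50 and 6.32, a difference of -0.52 (SE 0.11; limma adjusted p = 0.899). Kcnk3, an acid-sensitive two-pore channel, read 6.24, 6.31 and 6.29 against 6.11, 6.17 and 6.15 (-0.13, SE 0.11). Across all 87 potassium channel genes whose symbol begins with Kcn, 52 had lower means, 8 were separate on the low side and 2 on the high side, with a median of -0.03. Together 11.5% of them were separate, near the 10.3% of all genes. Kcnc1 (0.02, SE 0.10), a channel gene of fast-spiking neurons, and Kcna1 (-0.01, SE 0.09), a low-threshold channel gene, overlapped. Kcnd2, an A-type channel gene, was separate at -0.15 (SE 0.09).

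Voltage-gated calcium channel genes were mostly above their controls, with 13 of 16 means higher and a median of 0.04. That count rested on deaf 1: without it, 9 of the 16 had lower means and the median was -0.01. Calcium-binding proteins, used as markers of IC cell classes, showed no shift in Pvalb (-0.03, SE 0.12) or Calb1 (-0.04, SE 0.10) beyond the spread. Acan, the core of perineuronal nets, had a difference of -0.01 (SE 0.09), and 9 of 18 net components had lower means.

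Cholesterol synthesis genes had the lowest median of the 29 pathway lists. Of 13 measured members 12 had lower means, against 51.8% of all genes. Their median was -0.12, against -0.0051 over all genes, and it ran from -0.15 to -0.09 when single left arrays were left out. Lss, which closes the sterol ring, read 7.61, 7.72 and 7.51 in control and 7.40, 7.22 and 7.46 in deaf arrays, a difference of -0.25 (SE 0.11; limma unadjusted p = 0.0352). Dhcr7, which makes cholesterol in the last step, read 7.71, 7.53 and 7.73 against 7.50, 7.38 and 7.46, a difference of -0.21 (SE 0.10). Fdps, which makes farnesyl diphosphate, read 7.81, 7.89 and 7.72 against 7.46, 7.71 and 7.63, a difference of -0.20 (SE 0.10). The isoprenoid enzyme gene Idi1 (-0.14) and the demethylating oxidase gene Msmo1 (-0.12) were separate as well, which made 5 in all. All 5 were separate on the low side, against 5.7% of all genes, and each by a small margin. Members early and late in the pathway were both among them, and Pmvk (0.03), a mevalonate pathway kinase, was the single member with a higher mean. On the right side the median was -0.09 and 12 of the 13 were lower, so the lower values were not confined to the left. Each side has its own control arrays, and their difference was not called for any member (0 of 13 by the limma interaction).

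**Figure D2:**
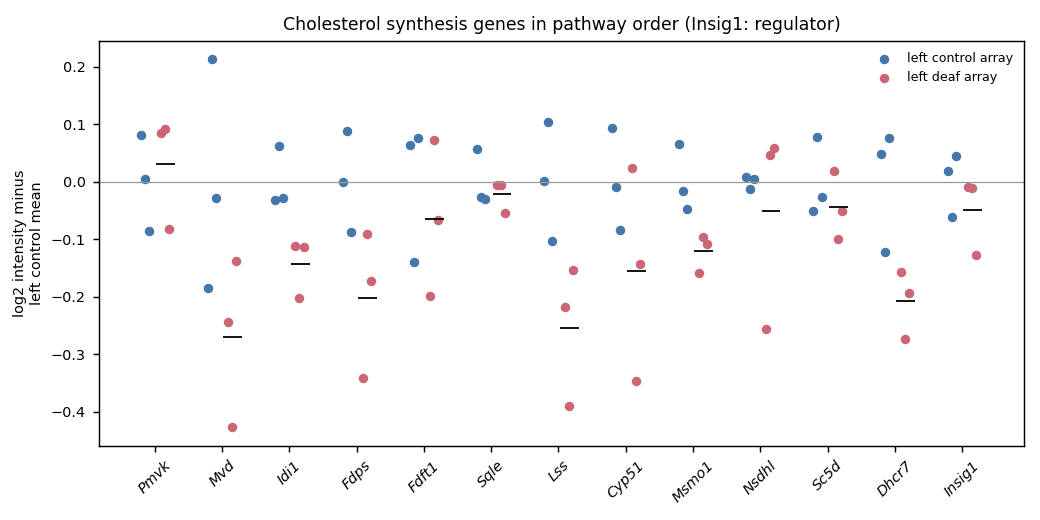
Log2 intensity of each measured cholesterol synthesis gene minus its left control mean (vertical axis), with the enzymes in pathway order and the regulator Insig1 last; blue points are control arrays, red points deaf arrays and the short line the deaf mean. The deaf mean is below 0 for 12 of the 13 genes, and Lss, Dhcr7, Fdps, Idi1 and Msmo1 have no overlap.

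Tmem97, a sterol-regulated membrane protein gene picked after its values were seen, read 6.45, 6.48 and 6.29 against 5.93, 5.77 and 6.21, a difference of -0.44 (SE 0.12). Elovl2, which elongates polyunsaturated fatty acids and is expressed in astrocytes, read 8.39, 8.32 and 8.37 against 7.99, 8.09 and 7.93, a difference of -0.35 (SE 0.07; limma adjusted p = 0.899). Its groups were separate by a wide margin relative to their spread, and the right difference was 0.07. Elovl2 was the separate member among 17 astrocyte markers, against 5.7% of all genes on the low side. Of the 17 markers, 12 had lower means (median -0.02). Over the omissions of single left arrays that count ran from 5 to 13, and the median was 0.01 without control 3. Gfap, the astrocyte filament protein, differed by -0.06 (SE 0.10). Aif1, a microglial marker, differed by 0.02 (SE 0.11).

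Myelin genes contained 4 separate members of 17, all on the low side, against 5.7% of all genes. Cnp, a myelin enzyme, read 10.11, 10.10 and 10.11 against 9.82, 10.002 and 9.81, a difference of -0.23 (SE 0.09; limma unadjusted p = 0.0221). Ugt8, which makes myelin galactolipids, read 9.41, 9.62 and 9.42 against 9.25, 9.35 and 9.09 (-0.26, SE 0.10). Ermn (-0.13) and the lineage factor gene Olig2 (-0.23, and -0.15 without control 3) were the others, whereas Mbp, a major myelin protein, overlapped at -0.09 (SE 0.09). The list median was -0.04 on the left (0.01 without deaf 3) and -0.10 on the right, where Cnp differed by -0.23 and Ugt8 by -0.30.

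Vessel genes included 3 separate members on the low side of 17, against 5.7% of all genes: the growth factor receptor Flt1 (-0.13), the pericyte gene Rgs5 (-0.15) and the glucose transporter Slc2a1. Slc2a1 read 9.44, 9.46 and 9.47 against 9.29, 9.33 and 9.34 (-0.14, SE 0.11), with a clear gap between tight groups. Slco1c1, which carries thyroid hormone across the vessel wall and was picked after its values were seen, read 8.77, 8.82 and 8.70 against 8.33, 8.55 and 8.52 (-0.29, SE 0.08). The right differences were 0.02 for Flt1, 0.02 for Slc2a1, -0.05 for Rgs5 and -0.11 for Slco1c1. As a list, vessel genes had a median of -0.08 on the left and -0.07 on the right. Of the 17 genes 11 had lower means on the left and 10 on the right, against 51.8% of all genes on the left. Flt1 and Slc2a1 themselves were not lower on the right. Without left control 2 the left median was -0.04.

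Hormone-responsive genes were among those with higher values. Sgk1, a kinase gene induced by glucocorticoids, read 7.78, 7.78 and 7.82 in control and 8.06, 8.14 and 8.10 in deaf arrays, a difference of 0.31 (SE 0.07; limma adjusted p = 0.986). The groups were tight and apart, but the right difference was nearly equal (0.29). Zbtb16, a transcription factor gene with the same inducer, read 6.18, 6.26 and 6.24 against 6.36, 6.55 and 6.35 (0.20, SE 0.09; right 0.34). Of 18 glucocorticoid-responsive genes 11 were higher, with a median of 0.10 that was 0.02 without left control 2. On the left 2 of them were separate on the high side and 1 on the low side, against 4.61% and 5.7% of all genes. The right median was 0.15, and 1 of the 18 had a lower mean there, so the higher values were not confined to the left. Per3 (0.21, SE 0.10) and Tef (0.19, SE 0.09), clock output genes, were the separate members among 16 clock genes, against 4.61% of all genes on the high side. Ifit3, an interferon-induced gene, read 3.30, 3.30 and 3.61 against 4.09, 3.71 and 3.84 (0.47, SE 0.17), near or below the lower quartile of the arrays. It was the separate member of 18 interferon genes, against the same 4.61%.

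**Figure D3:**
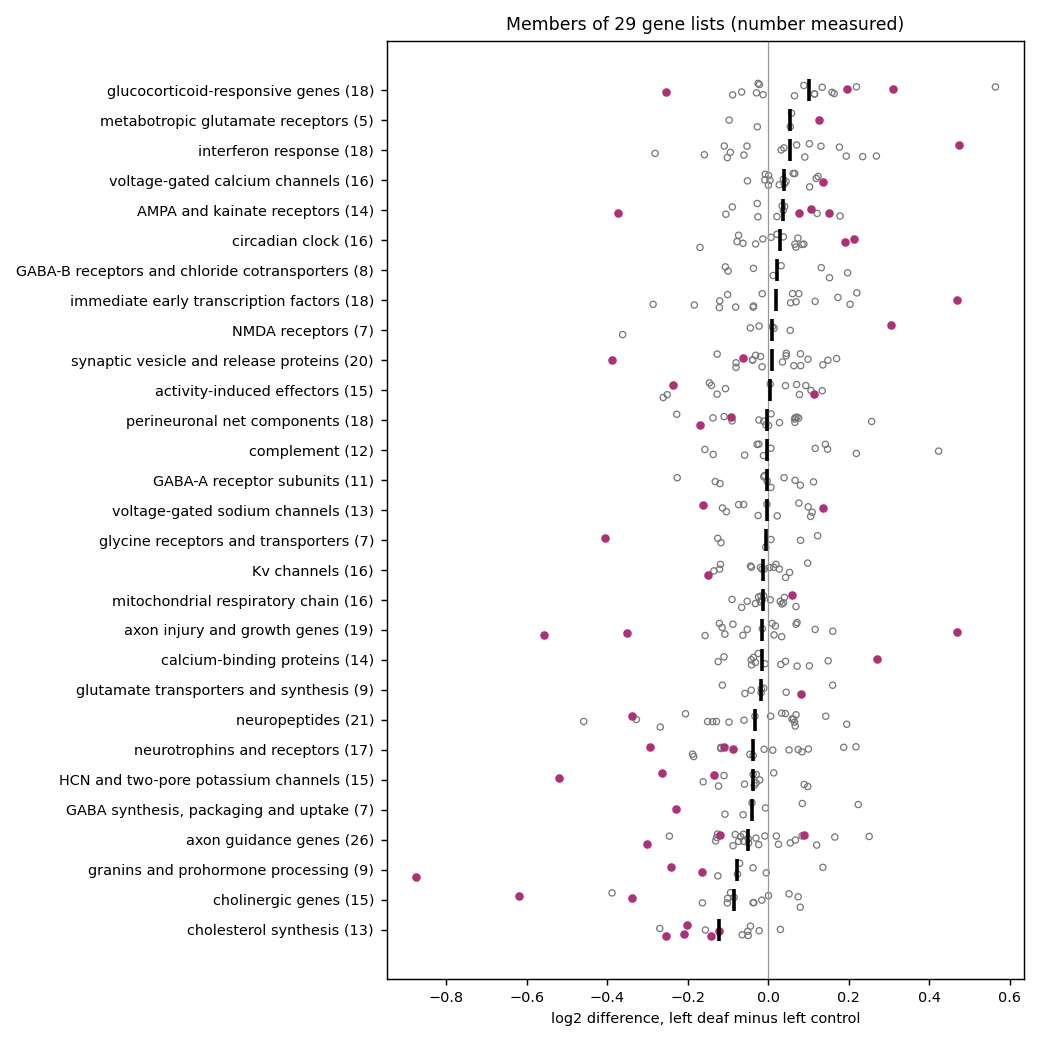
Deaf minus control log2 difference (horizontal axis) of the measured members of 29 pathway lists, ordered by median; filled points are members whose left arrays did not overlap, open points those that did, and the vertical tick is the list median. Medians run from -0.12 for cholesterol synthesis to 0.10 for glucocorticoid-responsive genes, and Vgf is the point farthest left (-0.88).

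Meningeal and fibroblast genes had the highest median of the 12 marker lists and no separate member. Of 19 measured, 18 had higher means, with a median of 0.22. Ogn, a matrix protein of the meninges, read 8.42, 7.98 and 7.69 against 8.42, 9.21 and 8.13. Deaf 2 was the highest left array for Ogn, Slc13a4 (7.46), Igf2 (9.02) and Col1a2 (7.41), and the deaf arrays 1 and 3 lay among the controls for Slc13a4 and Igf2. The list score, the mean of the members' centred log2 values, was 0.12, -0.21 and -0.39 in control and -0.07, 0.56 and -0.16 in deaf arrays. Without deaf 2 the median was 0.06, and without deaf 3 it was 0.36. Lrg1 and Siglec1, described next, were highest on deaf 2 as well, and the part of meningeal tissue in their values was not tested.

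Of 18 choroid plexus and ependymal genes 1 was separate on the high side and 3 on the low side, against 4.61% and 5.7% of all genes. Their median was -0.04, and 0.04 without deaf 1. Ttr, the thyroid hormone carrier of the choroid plexus, read 4.80, 4.83 and 4.90 against 5.18, 5.29 and 4.91 (0.28, SE 0.10). The channel gene Clic6 (-0.27, SE 0.10), the folate receptor gene Folr1 (-0.22, SE 0.08) and the prolactin receptor gene Prlr (-0.07, SE 0.11) were the lower ones. Among 15 measured skeletal muscle genes Tnni2 (0.69), Tnnt1 (0.43) and Eno3 (0.29) were separate on the high side, against 4.61% of all genes. Pygm (-0.15), which is also expressed in brain, was separate on the low side, against 5.7%. Hba-a1, a haemoglobin gene, read 6.96, 6.86 and 6.91 against 6.16, 6.77 and 6.65 (-0.38, SE 0.16), lower in each deaf array, and the difference was -0.20 without deaf 1. The part of these tissues in any other difference was not tested.

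**Figure D4:**
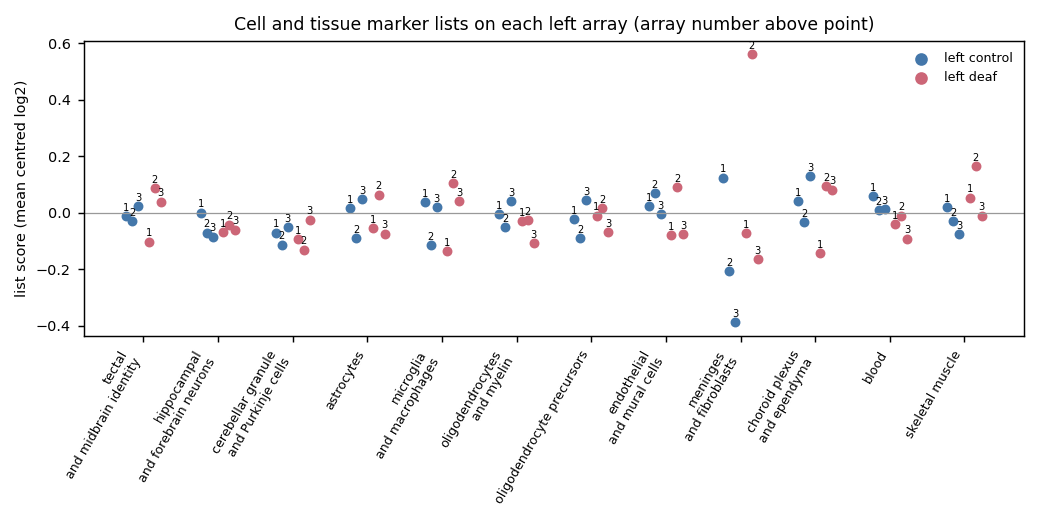
Score of 12 cell and tissue marker lists (vertical axis, mean of the members' log2 values after centring each gene over the 12 arrays) on the 3 control (blue) and 3 deaf (red) left arrays, with the array number above each point. The meningeal list spreads most, from -0.39 on control 3 to 0.56 on deaf 2.

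By the rule of smallest p with separate arrays and a difference of at least 0.3, 12 genes were named in each direction, and none passed a limma adjusted p of 0.05. On the high side they were Tnp1, Ccn2, Rpa3l1, Sgk1, Vsx1, Tnni2, Trarg1, Snu13l1, Lrg1, Prokr1, Siglec1 and Xk. Ccn2, a matrix growth factor gene, read 5.07, 4.82 and 4.92 against 5.32, 5.32 and 5.34, a difference of 0.39 (SE 0.09), with nearly identical deaf arrays. Lrg1, a secreted glycoprotein gene of inflamed vessels, read 5.04, 5.09 and 5.01 against 5.50, 5.92 and 5.41 (0.56, SE 0.15). Xk, a membrane protein gene, read 6.25, 6.27 and 6.24 against 6.60, 6.56 and 6.52 (0.31, SE 0.08), with the gap several times the spread within either group.

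Tnp1, which encodes a chromatin protein of sperm, read 3.73, 3.60 and 3.81 against 4.09, 4.12 and 4.16 (0.41, SE 0.08). The retinal factor gene Vsx1 differed by 0.51 (SE 0.12) and the prokineticin receptor gene Prokr1 by 0.51 (SE 0.14). Siglec1, a macrophage receptor, read 4.41, 4.64 and 4.29 against 4.79, 4.90 and 4.70 (0.35, SE 0.10; right 0.26). Tnp1, Vsx1, Prokr1 and Siglec1 all had 12-array means below the array median of 5.34, where differences are noisier. So did Ccn2 (5.25), Lrg1 (5.30), Trarg1 (5.27), Rpa3l1 (4.83) and Tnni2 (4.80). The remaining 4 higher genes were Rpa3l1 (0.78, SE 0.18), Tnni2 (0.69, SE 0.17), Snu13l1 (0.39, SE 0.10) and Trarg1 (0.32, SE 0.08).

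On the low side the 12 genes were Vgf, Prtn3, Rup2, Elovl2, Itga7, Kcnk15, Ftdc2, Garin3, Sprr1a, Clec2d2, Mesp2 and Prl3d4. Itga7, a laminin receptor subunit gene, read 5.68, 5.68 and 5.66 against 5.15, 5.29 and 5.37, a difference of -0.40 (SE 0.09), with controls nearly identical. Prtn3, a protease gene of neutrophils, read 5.25, 5.40 and 5.19 against 4.64, 4.57 and 4.89 (-0.58, SE 0.10). Clec2d2, a lectin-like receptor gene, read 4.45, 4.65 and 4.82 against 3.71, 3.91 and 3.72 (-0.86, SE 0.20). Those 3 were separate by wide margins, and Itga7 and Prtn3 had right differences near 0 (0.04 and 0.02). Mesp2 (-0.57, SE 0.14), Ftdc2 (-0.58, SE 0.13), Garin3 (-0.40, SE 0.09) and Prl3d4 (-0.50, SE 0.12) completed the set with Rup2 (-0.76, SE 0.13). Prl3d4 read 2.57 to 3.04 in control and 2.18 to 2.30 in deaf arrays, far below the lower quartile of 3.78. The 12-array mean of Ftdc2 (3.41) was also below that quartile, and that of Garin3 (3.79) was close to it. Prtn3 (5.04), Rup2 (4.77), Clec2d2 (4.31) and Mesp2 (5.11) had 12-array means below the array median of 5.34.

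**Figure D5:**
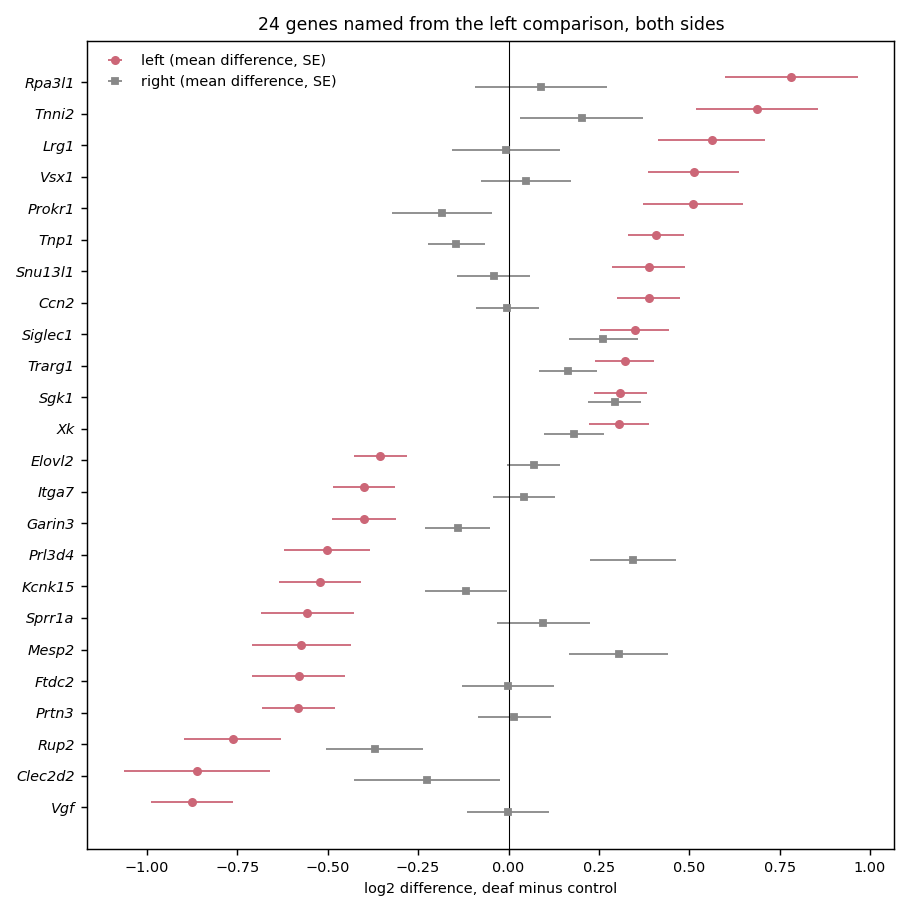
Deaf minus control log2 difference (horizontal axis) with its SE for the 24 genes named from the left comparison, on the left (red circles) and the right (grey squares). The genes were chosen for their left values; Sgk1 lies at 0.31 and 0.29 on the left and right, and Vgf at -0.88 and -0.0009.

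Of these 24 genes 13 had a right difference of the same sign, and none had a difference between sides that passed a limma adjusted p of 0.05. Over all 18166 genes the difference between sides was called for 0 (0%), with 622 at an unadjusted p under 0.05 and a smallest adjusted p of 0.0926. That smallest value belonged to Mirlet7f2, a let-7 microRNA gene picked after its values were seen. Its probe read 1.78, 1.84 and 1.79 against 2.36, 2.23 and 2.23 on the left (0.47, SE 0.07), and the right difference was -0.33. The deaf left arrays were all above the controls, but the level was at the dim end of the arrays, at percentile 0.809 of all genes. The mature microRNA of this gene, from RefSeq, is shown with its seed (bases 2 to 8) in capitals, because it is the product that would act on targets; whether the probe reads the mature form is not stated.
rno-let-7f-5p (GRCr8, chrX:24460052-24460073, plus strand): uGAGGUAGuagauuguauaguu

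Among the 4542 brightest genes, where the median SE was 0.09 against 0.16 among the 4542 dimmest, a few more separate genes were picked after their values were seen. Rgs4, a regulator that shortens G protein signalling, read 7.79, 7.96 and 7.77 against 7.39, 7.41 and 7.48, a difference of -0.41 (SE 0.10; limma adjusted p = 0.986; right 0.07). Lxn, a carboxypeptidase inhibitor gene, read 9.18, 9.27 and 9.42 against 9.02, 8.95 and 8.97 (-0.31, SE 0.08). Hrh3, the histamine autoreceptor, read 8.35, 7.82 and 8.38 against 8.55, 8.83 and 8.85 (0.56, SE 0.16). Rgs4 and Lxn were lower and Hrh3 higher in each deaf array, and the low control 2 value widens the Hrh3 difference. Elk1, a transcription factor activated by growth factor signalling, read 7.60, 7.76 and 7.73 against 8.17, 7.93 and 7.95 (0.32, SE 0.11). Prrt2, a presynaptic release protein, read 9.74, 9.61 and 9.99 against 9.998, 10.17 and 10.20 (0.34, SE 0.11), where control 3 and deaf 1 nearly met.

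By gene family, the share of separate genes was near the 10.3% of all genes for olfactory receptors (10% of 1185), solute carriers (8.67% of 346) and proteasome subunits (9.09% of 44). For class I and II MHC genes it was 17.9% of 39, with 5 separate on the high side and 2 on the low side. Olfactory receptor genes had a median level of 2.95, below the lower quartile. The median size of the difference was 0.12 among the 4542 dimmest genes and 0.05 among the 4542 brightest, while 10.3% and 10.5% of them were separate.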

How the data were processed

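Tissue RNA from 12 rat IC samples (4 groups of 3, from 2 sides and 2 operations) was hybridised to 1-colour Affymetrix arrays. Intensities were deposited on a log2 scale and had already been brought to 1 distribution by the authors, since the 12 arrays differ by at most 0.0995 at any rank. Names of the array model and of the software were not given in the sources used here. Precision is limited by how many arrays there are.

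Of 29489 probes, 18511 had 1 gene symbol, 575 several and 10403 none in the platform table. Probes with 1 symbol were kept, and the brightest by 12-array mean represented each of the 291 genes with more than 1, leaving 18166 genes. All columns of the table were used, and no genes were filtered. Of these genes, 18059 matched RefSeq by Entrez identifier, and 0 symbols differed.

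The means of the 4 groups were estimated by limma 3.58.1 (R 4.3.3) over all 12 arrays (8 residual and 3.79 prior degrees of freedom, residual SD 0.152 at the median). Two-sided p-values had the Benjamini-Hochberg adjustment over all genes and were called under 0.05. An exact permutation test of 3 arrays against 3 cannot go below 0.1. The fit was tested on simulated data.

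The comparison, 41 gene lists (686 genes, 591 measured), marker lists and tests were chosen with earlier results of these data known. Named genes were up to 12 per direction with the smallest p, separate arrays and a difference of at least 0.3, skipping predicted, unnamed, microRNA and chemoreceptor genes (7 higher and 3 lower), the 2 smallest p of each list, and a panel of 30 genes (27 measured). Other list members, such as Scg3, Fdps, Zbtb16 and Slc2a1, met none of these rules. They were described with their values seen, many because their arrays were separate. Genes described from outside the rules and lists are marked as picked after their values were seen. Promoter windows (250 bases before to 50 after the start, RefSeq GRCr8) were searched on both strands. The glucocorticoid response element, in the form searched, was found in 2 of 27457 and in none of the named or granin promoters. A form this rare (0.00728% of all promoters) would be missing from such small sets in nearly any case. Its absence there therefore cannot show whether these genes lack the element.

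Alternatives were other normalizations, probe choices, filters, variance models, array weights, the left arrays alone, a replicate block and leaving out each left array.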

Additional observations from a re-analysis of the deposited data

How the results depend on the processing

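All 24 genes named by p kept their sign in each of the 14 settings with values per gene that held them. For omissions of single left arrays this was fixed in advance, since the genes were chosen for separate arrays. None of the 24 moved by over 1.5 times when a left array was left out. The median kept its sign in 11 of 41 lists, among them granins, cholesterol synthesis, HCN and two-pore channels, endothelial and meningeal genes. The count of genes passing the limma adjusted threshold was 0 and became 1, Vgf, among genes above the median level (adjusted p = 0.0113), with a variance trend and robust estimation (0.00221) and without left deaf 3; over single-array omissions it was 0 to 1. For Vgf the adjusted p over those 14 settings ran from 0.00221 to 0.914. Among genes above the median level, with fewer genes tested, 143 were higher and 216 lower at unadjusted p under 0.05, and 387 and 556 were separate. Array weights gave 476 higher and 568 lower; the cause was not tested.

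With the replicate block, no left gene passed (0), 283 were higher and 353 lower at unadjusted p under 0.05, and 1 difference between sides passed, RGD1565183 (1.27, limma adjusted p = 0.0423). Same-numbered left control and deaf arrays correlated at -0.0988, -0.0855 and -0.00702 in their deviations from group means. Same-numbered left and right arrays correlated at 0.103, -0.0132 and 0.0568 in control and at 0.149, -0.0558 and -0.0429 in deaf rats. No pairing of arrays by number was taken from these values, and the labels do not state whether left and right arrays share rats.

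Dim probes limit the comparison: the median SE was 0.16 among the 4542 dimmest genes and 0.09 among the 4542 brightest.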
